A study of Homo sapiens with 15 samples.

Results

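The response of MG-63 cells to an amine-rich titanium coating was measured after 24 h of culture, as the difference between cells on Ti-TMS-PEI and cells on uncoated titanium. The 7 arrays labelled with 24 h were used, 4 of Ti-TMS-PEI (A to D) and 3 of Ti-Ref (A to C), out of 15 arrays in the series. Ti-TMS-PEI is titanium that carries a thin layer of polyethyleneimine, a polymer rich in amino groups, bound through a trimethoxysilyl group. Ti-Ref is titanium on the same silicon wafers without the layer. The MG-63 cells, osteoblast-like and derived from a human osteosarcoma, stand for 1 tumor line in culture and not for bone. Per the methods of the study, the cells were kept in DMEM with fetal calf serum and gentamicin, and the coating is the only labelled difference between the groups. The study states quadruplicates from independent experiments and the exclusion of 1 Ti-Ref array for its labelling controls, which leaves 3. Each array was taken as 1 replicate, and the p values measure only the spread between these arrays.

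Clariom S arrays report 1 log2 signal for each transcript cluster, a set of probes for 1 gene. Of 21448 transcript clusters, 17709 carry 1 gene symbol. A transcript cluster was called where it differed by more than 1.5-fold between the surfaces and had both its limma p and the Benjamini-Hochberg adjusted value below 0.05. After 24 h, 1319 transcript clusters were called, 6.15% of those tested. They were 742 higher on Ti-TMS-PEI (3.46%) and 577 lower (2.69%). Genes of the cell cycle, for which 372 transcript clusters were measured, gave 174 of these calls, 1 higher and 173 lower. A further 15 calls were among 20 genes tabulated in the study, and 127 had no symbol. The remaining 1003 called genes, 660 higher and 343 lower, are described here. They were 5.79% of the 17317 transcript clusters of this class, which lies near the share of all transcript clusters. The exclusion follows lists of known cell cycle genes, so genes with roles close to it are still among the 1003, such as the chromatin enzymes EZH2 (log2 difference -0.92) and SUV39H1 (-1.03).

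For amine-rich surfaces, the study names the electrostatic attraction between positive amino groups and the negatively charged cell. Cells can also attach to a biomaterial through proteins adsorbed on it. Integrins bind these proteins, and the signals pass through kinases, the actin skeleton and co-activators such as YAP to the nucleus, where immediate early genes respond first and secreted proteins, proteases and matrix components later. Osteoblasts build and remodel their matrix with collagens, metalloproteinases and the plasminogen system, and prostaglandins made by PTGS2 act on bone formation and resorption.

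The median log2 signal lay between 6.77 and 6.79 in the Ti-TMS-PEI arrays and between 6.71 and 6.74 in the Ti-Ref arrays. Along the first principal component (48.7% of the variance) the surfaces were separate, with the Ti-TMS-PEI arrays from -33.2 to -13.0 and the Ti-Ref arrays from 25.8 to 30.8. Ti-TMS-PEI C and D lay closer to Ti-Ref than A and B. Arrays do not give a sequencing depth, and their number limits the precision. Markers of osteoblast-like and mesenchymal cells did not pass the test (0 of 9 called). VIM had a mean log2 signal of 16.94 on Ti-TMS-PEI, against 16.93 on Ti-Ref, COL1A1 had 15.18 on Ti-TMS-PEI, against 15.07 on Ti-Ref, while the bone genes IBSP, SP7 and SPP1 lay between 3.23 and 4.51 on both surfaces, among the dim signals. Epithelial markers were dim (mean over 9 markers 4.38 to 4.58 on Ti-TMS-PEI and 4.48 to 4.65 on Ti-Ref), with 0 of 9 called. Of 10 endothelial markers 1 was called (CDH5, higher, lost without Ti-TMS-PEI A or B or Ti-Ref B or C; mean over the list 5.67 to 5.87 on Ti-TMS-PEI and 5.50 to 5.75 on Ti-Ref), and of 9 blood cell markers 1 was called (CD68, higher, a protein that is also lysosomal; 5.92 to 6.16 on Ti-TMS-PEI and 5.85 to 6.05 on Ti-Ref). PECAM1 and PTPRC, which define endothelial and blood cells, had mean log2 signals of 3.72 and 5.34 on Ti-TMS-PEI and 3.37 and 5.93 on Ti-Ref.

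The 1003 genes were mostly increases (65.8%). This balance depended on the scaling: when each array was centred on its median, 1020 genes were called and 51.8% of them were higher. The median increase was 1.80-fold and the median decrease 1.75-fold. More than 2-fold changes were found for 233 increases and 94 decreases, and more than 4-fold changes for 25 increases and 6 decreases. The arrays of the surfaces did not overlap for 998 of the 1003 genes, while 23.5% of all transcript clusters did not overlap. Dim signals were rarely called: when transcript clusters were ranked by mean signal and divided into 4 groups of equal size, 0.373% of the dimmest group were called, then 2.95%, 10.5% and 10.8%, so that lists of well expressed genes reach higher shares of calls than 6.15%. Leaving out 1 array at a time left 694 (without Ti-Ref A) to 1047 (without Ti-TMS-PEI C) calls, and 519 of the 1003 genes, 366 higher and 153 lower, were called in all 7 of these fits. Without Ti-Ref A the decreases numbered 205 in place of 343.

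**Figure D1:**
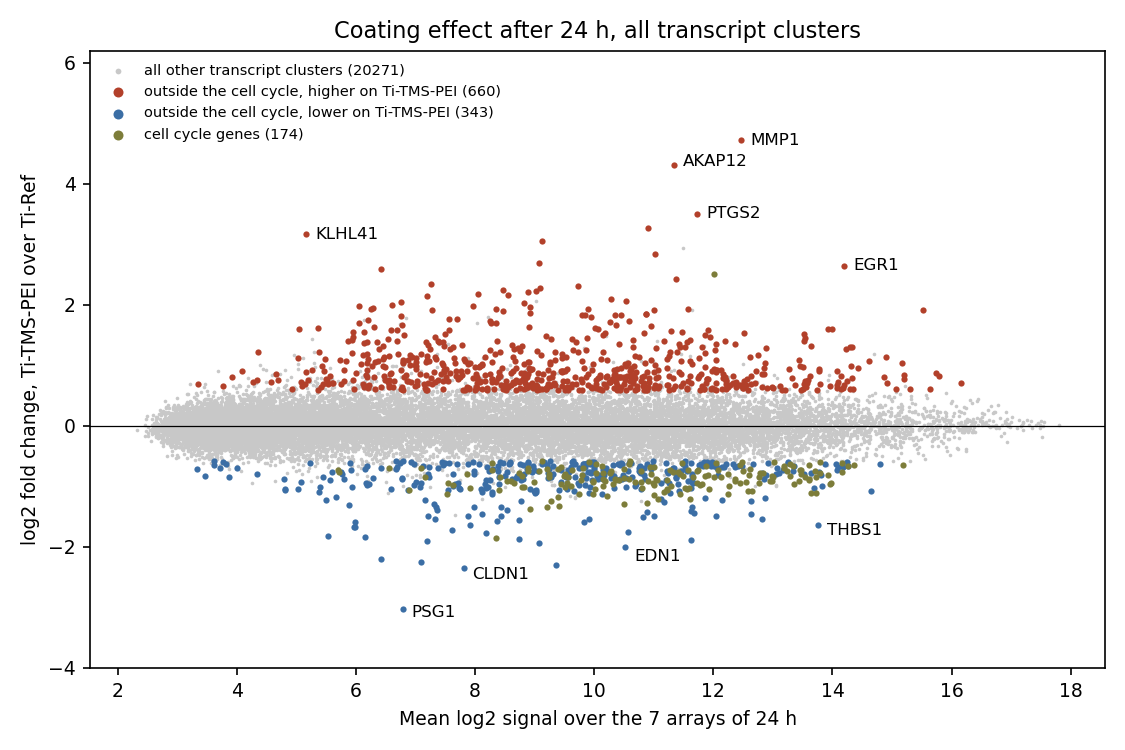
Log2 fold change of Ti-TMS-PEI over Ti-Ref after 24 h (vertical axis) against the mean log2 signal over the 7 arrays (horizontal axis) for each transcript cluster. Red points are called genes outside the cell cycle that were higher on Ti-TMS-PEI (660), blue points are those that were lower (343), and olive points are the 174 called cell cycle genes, nearly all below 0.

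Within the groups, the arrays differed in a way that ran through many genes. Among the 660 increases, the Ti-TMS-PEI array nearest to Ti-Ref was C for 285 genes (43.2%) and D for 231 (35.0%), and A was the farthest for 308 (46.7%). Among the 343 decreases, C was nearest for 136 and D for 141, and A was the farthest for 168 (49.0%). Ti-TMS-PEI C or D was thus the coated array nearest to Ti-Ref for most called genes. What distinguished these arrays was not tested.

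The promoter windows of 4 of the 10 largest increases are shown, because they are those that held a searched motif. Windows were searched for 8 of these 10 genes, all but MMP1 and GEM. The windows run from 250 bases before to 50 bases after the annotated start, are taken from RefSeq (GRCh38.p14) and are written along the strand of the gene. Capitals mark CArG boxes, the binding motif of serum response factor, in AKAP12 (chr6:151239717-151240016, plus strand), CHI3L1 (chr1:203186655-203186954, minus strand) and EGR1 (chr5:138465229-138465528, plus strand), and the TEAD motif GGAATG in CCL26 (chr7:75789697-75789996, minus strand).
AKAP12: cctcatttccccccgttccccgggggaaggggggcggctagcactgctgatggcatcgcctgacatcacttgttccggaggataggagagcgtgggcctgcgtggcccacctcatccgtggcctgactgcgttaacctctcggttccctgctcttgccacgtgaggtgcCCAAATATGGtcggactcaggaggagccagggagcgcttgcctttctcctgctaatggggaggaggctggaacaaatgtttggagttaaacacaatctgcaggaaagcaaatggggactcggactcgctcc
CHI3L1: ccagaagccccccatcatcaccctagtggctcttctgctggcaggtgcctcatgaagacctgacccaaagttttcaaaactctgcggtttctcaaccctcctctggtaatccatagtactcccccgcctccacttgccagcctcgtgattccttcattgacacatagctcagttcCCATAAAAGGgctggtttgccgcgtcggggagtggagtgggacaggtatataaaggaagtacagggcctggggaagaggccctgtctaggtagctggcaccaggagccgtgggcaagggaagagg
EGR1: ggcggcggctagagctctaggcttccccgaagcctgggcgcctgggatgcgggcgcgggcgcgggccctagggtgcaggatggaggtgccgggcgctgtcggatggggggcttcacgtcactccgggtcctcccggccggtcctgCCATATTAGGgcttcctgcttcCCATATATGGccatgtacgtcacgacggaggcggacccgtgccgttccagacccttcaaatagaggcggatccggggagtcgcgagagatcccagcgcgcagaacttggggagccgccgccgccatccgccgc
CCL26: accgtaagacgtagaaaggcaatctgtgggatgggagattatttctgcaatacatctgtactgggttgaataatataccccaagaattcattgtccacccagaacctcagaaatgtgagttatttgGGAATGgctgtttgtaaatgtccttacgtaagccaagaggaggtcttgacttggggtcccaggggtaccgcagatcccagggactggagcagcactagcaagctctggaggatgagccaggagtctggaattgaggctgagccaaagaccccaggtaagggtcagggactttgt
The CArG box began at position -81 in AKAP12 and at -75 in CHI3L1, and EGR1 held a pair of them at -105 and -83, counted from the start with -1 as the last base before it. Windows were found for 15 of the 20 largest increases and for 16 of the 20 largest decreases. A CArG box was in 3 of the 15 and 0 of the 16, the TEAD motif GGAATG in 3 of the 15 and 3 of the 16, the AP-1 motif TGANTCA in 0 of the 15 and 2 of the 16, and the cyclic AMP response element TGACGTCA in none of them (0). Of all 27305 windows, 1.29% held a CArG box, 14% the TEAD motif, 7.76% the AP-1 motif and 1.98% the cyclic AMP response element. Over all called genes outside the cell cycle, a CArG box was in 0.928% of 539 windows of increases and in 1.11% of 271 windows of decreases, against 1.24% of 14250 windows of measured genes. The AP-1 motif was in 6.31% and 5.17% of these windows, against 5.75%, and the cyclic AMP response element in 2.23% and 1.85%, against 2.62%. The TEAD motif was in 12.2% and 14%, against 11.6%. Both strands were searched, no AP-1 match is also a match of the cyclic AMP response element, and a match is only a string of letters.

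MMP1, a collagenase that cuts fibrillar collagen, had the largest change. Its log2 signal was 14.55, 14.64, 14.32 and 14.46 on Ti-TMS-PEI, and 10.17, 9.41 and 9.74 on Ti-Ref. All 4 Ti-TMS-PEI arrays lay at least 4.15 above the highest Ti-Ref array, and the log2 fold change was 4.72 (± 0.17 SE, limma adjusted p = 6.18e-06). AKAP12, a scaffold that holds protein kinases A and C, reached 13.98, 13.59, 12.11 and 13.06 on Ti-TMS-PEI, against 9.03, 8.42 and 9.15 on Ti-Ref. Its Ti-TMS-PEI arrays spread widely (SD 0.81, n = 4), with C the lowest, but none approached Ti-Ref. PTGS2, the inducible cyclooxygenase, had log2 signals of 13.28, 13.43, 13.18 and 13.06 on Ti-TMS-PEI and of 9.85, 9.56 and 9.78 on Ti-Ref. These were narrow groups, and their difference of 3.51 (standard error 0.12) was 11.4-fold. CHI3L1, a secreted chitin-binding glycoprotein of connective tissue, had 12.77, 12.59, 12.10 and 11.78 on Ti-TMS-PEI and a level between 9.02 and 9.06 in the 3 Ti-Ref arrays.

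The integrin subunit ITGA2, part of a collagen receptor, showed 12.56, 12.68, 12.32 and 12.14 on Ti-TMS-PEI, and 10.04, 10.04 and 9.89 on Ti-Ref (log2 difference 2.44 ± 0.14 SE, limma adjusted p = 0.000135). LURAP1L, MYH15 and the shisa family member SHISA4 also rose by over 4-fold in groups as narrow. MYH15, a myosin heavy chain, had log2 signals of 8.47, 8.27, 8.03 and 8.27 on Ti-TMS-PEI and of 6.02, 5.89 and 5.84 on Ti-Ref. EGR1, an immediate early transcription factor, was at 15.38, 15.12, 15.16 and 15.66 on Ti-TMS-PEI and at 12.22, 12.97 and 12.87 on Ti-Ref. Of 36 immediate early factors 8 rose and 2 fell, 1 of them a tabulated gene (7 or 8 with 1 array left out, and 0 lower without Ti-Ref B). The small GTPases RASL12 and GEM rose by 3.05 and 2.60. RASL12 lay between 10.32 and 10.55 on Ti-TMS-PEI, while Ti-Ref B, at 6.61, was the lowest of the Ti-Ref arrays (A 7.67, C 7.89). GEM, which inhibits voltage-gated calcium channels, was at 7.59, 7.71, 7.37 and 7.47 on Ti-TMS-PEI, against 5.22, 4.46 and 5.13 on Ti-Ref. KLHL41, a muscle protein of the kelch family, was the most scattered of the 20 largest increases, with 7.76, 7.06, 5.08 and 6.18 on Ti-TMS-PEI and 4.09, 2.73 and 3.25 on Ti-Ref. Its log2 fold change of 3.16 (± 0.57 SE, limma adjusted p = 0.0115) was not called without Ti-Ref B.

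Transporters and enzymes made up further large increases. CA12, a carbonic anhydrase of the cell surface, had 12.91, 12.37, 11.45 and 12.23 on Ti-TMS-PEI, against 9.20, 8.73 and 10.25 on Ti-Ref, with Ti-TMS-PEI C and Ti-Ref C nearest each other. SLC16A4, a member of the monocarboxylate transporter family, lay between 9.61 and 10.64 on Ti-TMS-PEI and between 7.61 and 8.0 on Ti-Ref. SLC6A15, a transporter of neutral amino acids, lay between 9.53 and 10.35 on Ti-TMS-PEI and between 7.63 and 7.84 on Ti-Ref. In both, D was the lowest of the Ti-TMS-PEI arrays. GALM, the galactose mutarotase, rose by 2.17, and the adhesion receptor ADGRG1 by 2.24, with 9.04, 9.89, 9.69 and 9.12 on Ti-TMS-PEI and 7.02, 7.33 and 7.23 on Ti-Ref. The RNA-binding protein PCBP3 rose by 2.18 and SCARA5, a scavenger receptor that takes up ferritin, by 2.14. SCARA5 was scattered on both surfaces, at 8.61, 8.87, 7.42 and 7.57 on Ti-TMS-PEI and at 6.21, 6.46 and 5.26 on Ti-Ref.

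**Figure D2:**
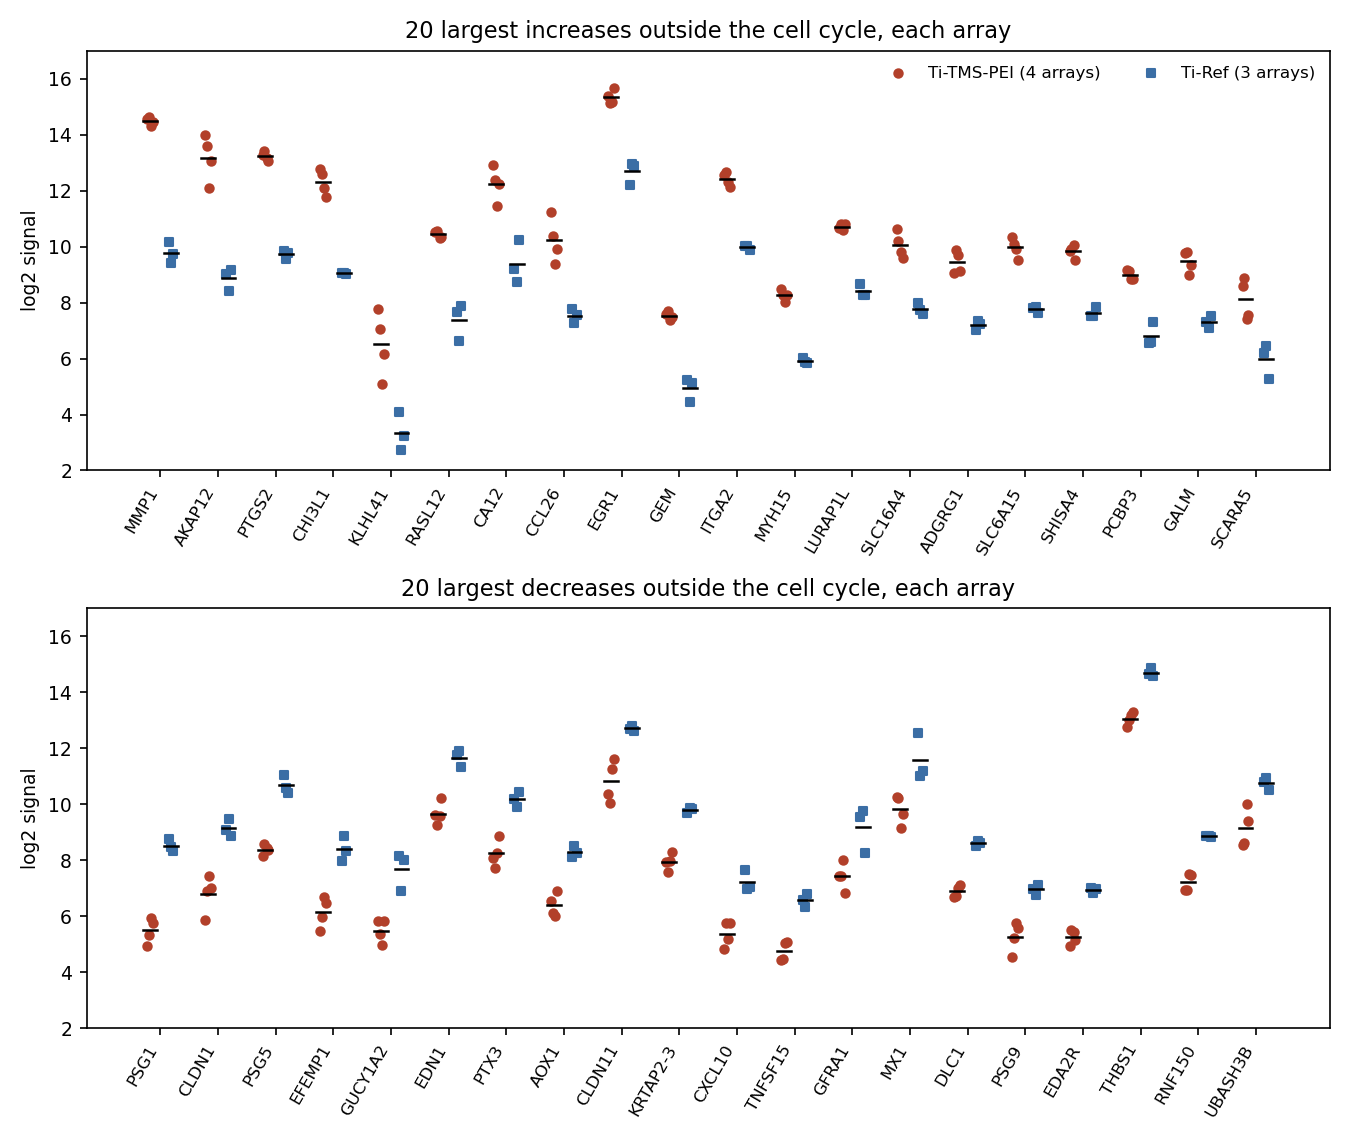
Log2 signal (vertical axis) of the 20 largest increases (upper panel) and 20 largest decreases (lower panel) outside the cell cycle in every array, with Ti-TMS-PEI as red circles left of Ti-Ref as blue squares and the group means as black lines. The genes were chosen among those whose groups do not overlap, and the gap between the nearest arrays was over 1 on the log2 scale for 18 increases and 17 decreases.

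PSG1, a pregnancy-specific glycoprotein, had the largest decrease of the 343 genes. It had log2 signals of 4.93, 5.34, 5.94 and 5.75 on Ti-TMS-PEI, against 8.77, 8.46 and 8.33 on Ti-Ref, and PSG5 had 8.16, 8.57, 8.43 and 8.35 on Ti-TMS-PEI, against 11.04, 10.58 and 10.40 on Ti-Ref. The Ti-TMS-PEI arrays lay below the lowest Ti-Ref array by at least 2.39 for PSG1 and 1.83 for PSG5. These genes encode glycoproteins of the immunoglobulin family best known from the placenta. Of 15 measured genes of the PSG and CEACAM family 9 fell and 0 rose (median log2 fold change -0.85, against -0.0033 over all transcript clusters), and without 1 array the count was 6 to 9. The 9 are PSG1, PSG3, PSG4, PSG5, PSG6, PSG7, PSG8, PSG9 and PSG11. Their sequences are so similar that their probes may share signal, so the 9 calls are not independent.

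CLDN1 and CLDN11 are claudins, which seal tight junctions. CLDN1 had 5.86, 6.89, 7.45 and 7.02 on Ti-TMS-PEI and 9.09, 9.48 and 8.87 on Ti-Ref, and CLDN11 had 10.36, 10.05, 11.25 and 11.6 on Ti-TMS-PEI and 12.70, 12.81 and 12.61 on Ti-Ref. Ti-TMS-PEI A was lowest for CLDN1, and Ti-TMS-PEI B for CLDN11. EFEMP1, a fibulin of the matrix, had 5.45, 5.95, 6.68 and 6.46 on Ti-TMS-PEI, against 7.98, 8.85 and 8.31 on Ti-Ref. EDN1, the vasoactive peptide endothelin-1, was at 9.63, 9.26, 9.56 and 10.21 on Ti-TMS-PEI and at 11.75, 11.91 and 11.34 on Ti-Ref (log2 difference -2.00 ± 0.22 SE, limma adjusted p = 0.00186). GUCY1A2, a subunit of the nitric oxide receptor guanylate cyclase, was at 5.82, 5.35, 4.95 and 5.81 on Ti-TMS-PEI, against 8.13, 6.90 and 8.02 on Ti-Ref, and it was the 1 called of the 13 measured genes of guanylate cyclases and nitric oxide. The pentraxin PTX3, a soluble pattern recognition protein, had 8.09, 7.73, 8.26 and 8.87 on Ti-TMS-PEI and 10.18, 9.89 and 10.45 on Ti-Ref. THBS1, the matricellular protein thrombospondin-1, was the brightest of the 20 largest decreases, at 12.76, 12.99, 13.20 and 13.29 on Ti-TMS-PEI, against 14.64, 14.88 and 14.57 on Ti-Ref.

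AOX1, an aldehyde oxidase, fell by 1.90 on the log2 scale, and the ubiquitin ligase RNF150 by 1.64. RNF150 had 6.94, 6.92, 7.52 and 7.46 on Ti-TMS-PEI, while its 3 Ti-Ref arrays lay at 8.84 and 8.85. EDA2R, a receptor of the TNF family, was at 4.93, 5.49, 5.42 and 5.14 on Ti-TMS-PEI and at 6.99, 6.82 and 6.96 on Ti-Ref. TNFSF15, a ligand of the same family, was at 4.42, 4.47, 5.03 and 5.09 on Ti-TMS-PEI and at 6.59, 6.34 and 6.79 on Ti-Ref. Decreases of 3 of the 20 genes depended on single arrays. GFRA1, a co-receptor of glial cell line-derived ligands, had 7.44, 7.45, 7.99 and 6.81 on Ti-TMS-PEI and 9.54, 9.75 and 8.27 on Ti-Ref, and it was not called without Ti-TMS-PEI A or B or without Ti-Ref A or B. UBASH3B, a phosphatase, was not called without Ti-TMS-PEI B, Ti-Ref A or Ti-Ref B. The interferon-induced GTPase MX1 was not called without Ti-TMS-PEI C or D or Ti-Ref A. With 1 array left out, the log2 fold change was between -2.22 and -1.48 for GFRA1, between -1.88 and -1.40 for UBASH3B and between -2.05 and -1.27 for MX1.

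Genes were then read in 36 lists of pathways and families. Their counts are to be read beside the 6.15% called of all transcript clusters and the 10.8% called of the brightest signal group. A gene can be in more than 1 list, such as TNC, BHLHE40 and SQSTM1, so the counts of different lists are not independent. Focal adhesion and actin cytoskeleton genes, the structures that differ when cells spread, were called near the share of all transcript clusters, with 3 of 93 higher and 2 lower (5.38%). Their mean log2 signal, 10.83 to 10.86 on Ti-TMS-PEI and 10.81 to 10.86 on Ti-Ref, was high. It lay above the lower bound of the brightest of the 4 signal groups (10.20), of which 10.8% were called. Single members were not placed in the signal groups, so whether their share differs from that of equally bright genes was not tested. Without 1 array, 2 to 5 were higher (5 without Ti-Ref C) and 1 to 4 lower (1 without Ti-TMS-PEI A or Ti-Ref A or B, 4 without Ti-TMS-PEI D), and 4 were lower after centring. MYLK, the kinase of myosin light chains (log2 difference 1.24, limma adjusted p = 0.00405), and RND3, a GTPase that opposes stress fibers (-0.71, adjusted p = 0.00918), were called in all leave-one-out fits. The actin gene ACTB had a log2 fold change of -0.09 and vinculin (VCL) of 0.08. By contrast, 5 of 25 integrin genes were higher and 1 lower (2 lower without Ti-TMS-PEI A; median 0.21). Beside ITGA2, the collagen-binding subunits ITGA10 (1.62, adjusted p = 0.00189) and ITGA11 (1.04, adjusted p = 0.00437) and ITGB8 (0.86, adjusted p = 0.00418), which takes part in the activation of TGF-beta, rose. ITGA10 was at 6.33, 5.8, 6.30 and 5.77 on Ti-TMS-PEI and at 4.63, 4.49 and 4.18 on Ti-Ref. ITGB1, the common partner of these alpha subunits, had a log2 fold change of 0.21 and was not called. ITGB3 (-0.89) was the 1 lower, and it was lost without Ti-Ref A.

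**Figure D3:**
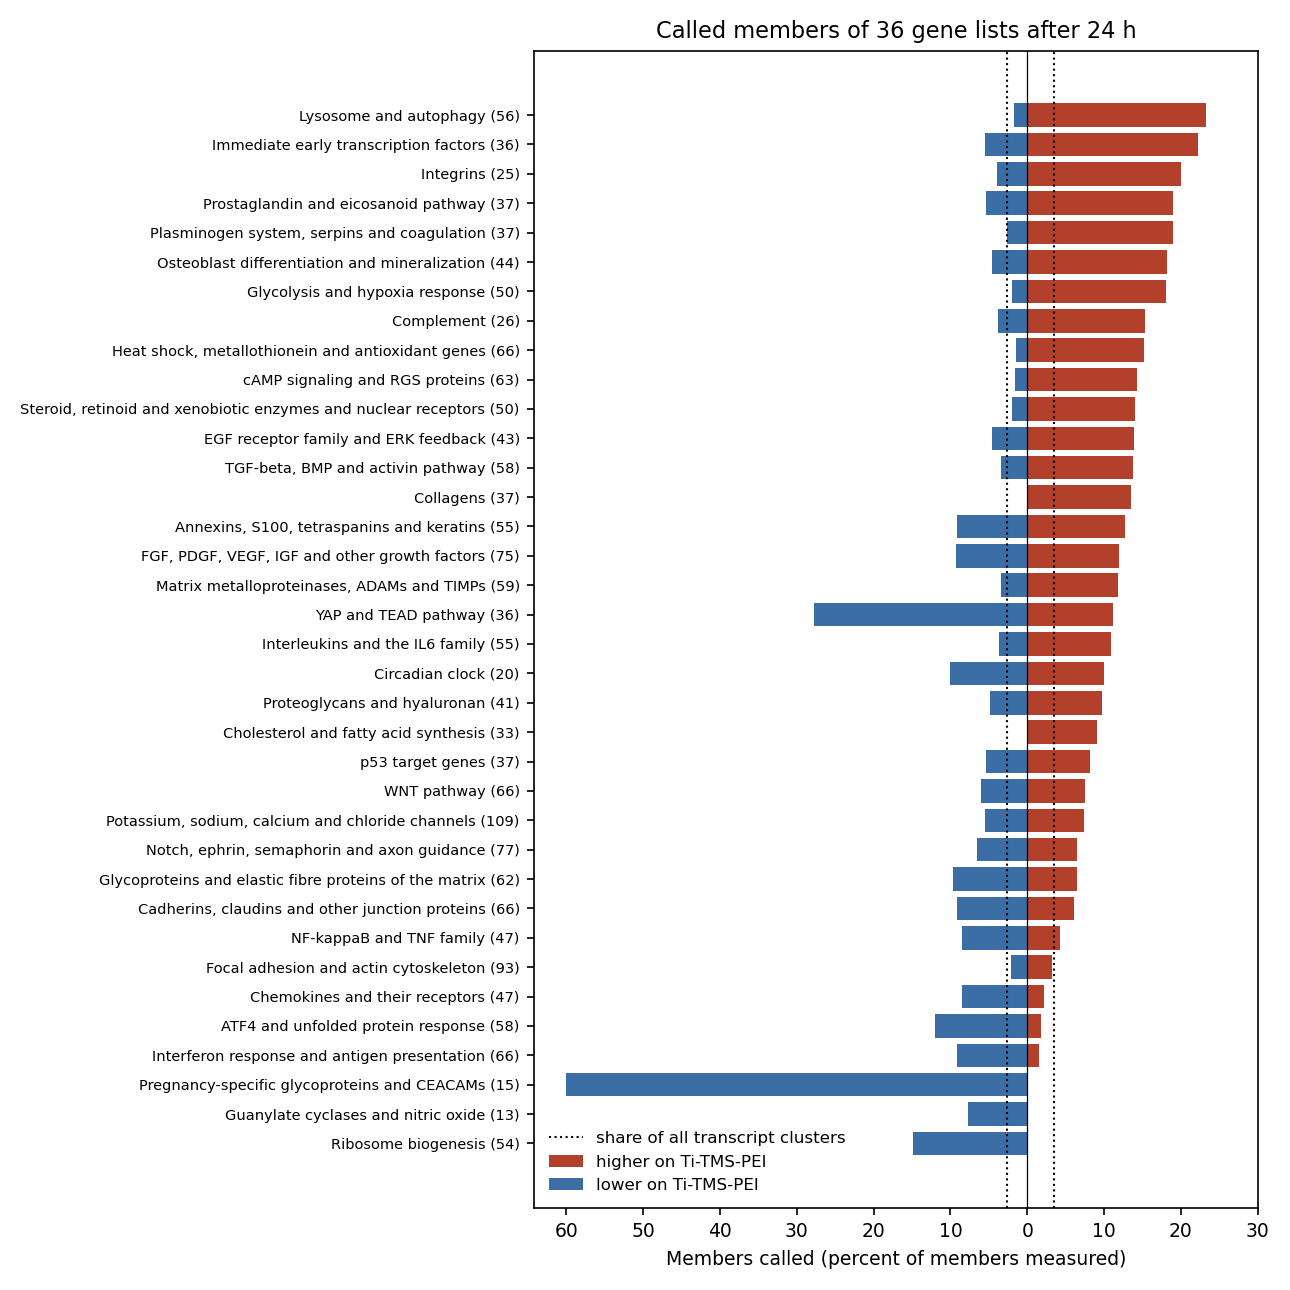
Share of the measured members of each of 36 gene lists (number measured in brackets) that were called after 24 h, with members higher on Ti-TMS-PEI to the right in red and members lower on Ti-TMS-PEI to the left in blue. Dotted lines give the shares of all transcript clusters, 3.46% higher and 2.69% lower. Lists are ordered by their share of higher members, from lysosome and autophagy (13 of 56 higher) to ribosome biogenesis (8 of 54 lower, 0 higher).

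Among matrix metalloproteinases, ADAM proteases and TIMPs 7 of 59 were higher and 2 lower (1 lower without Ti-TMS-PEI A, B or D or Ti-Ref C), with a median of -0.02. MMP14, the membrane-bound metalloproteinase that activates others at the cell surface, was at 14.73, 14.56, 14.53 and 14.65 on Ti-TMS-PEI and at 13, 12.87 and 13.19 on Ti-Ref (log2 difference 1.6 ± 0.11 SE, limma adjusted p = 0.000288). The inhibitor TIMP1 (0.70, adjusted p = 0.00928) and the aggrecanase ADAMTS4 (0.86, adjusted p = 0.00435) were also higher, while the aggrecanase ADAMTS5 (-1.08, adjusted p = 0.00342) was lower. MMP2 (0.34) and MMP13 (0.41) were not called. In the plasminogen system, serpins and coagulation factors, 7 of 37 were higher, 1 of them PLAUR from the tables of the study, and 1 was lower (3 higher without Ti-Ref B, 0 lower in every fit without 1 array except that without Ti-Ref C). PLAT, the tissue plasminogen activator, had 12.85, 12.61, 12.49 and 12.37 on Ti-TMS-PEI and 11.03, 11.27 and 11.05 on Ti-Ref (1.46, adjusted p = 0.000794), while the urokinase gene PLAU had a log2 fold change of 0.06. TFPI2, a protease inhibitor (1.32), and thrombomodulin (THBD, 0.91) rose.

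Collagens were called in 1 direction, with 5 of 37 higher and 0 lower, but this count fell to 1 without Ti-Ref C. The 1 that stayed in all fits, COL14A1, a collagen associated with fibrils, had 13.77, 13.29, 12.80 and 12.81 on Ti-TMS-PEI and 11.72, 11.6 and 11.6 on Ti-Ref (1.53, limma adjusted p = 0.00492). Of the basement membrane chains, COL4A2 (1.14) was lost without Ti-Ref A or C, and COL4A5 (1.09) without Ti-TMS-PEI A, B or C or Ti-Ref A or C. Glycoproteins of the matrix moved both ways, with 4 of 62 higher (2 without Ti-Ref A) and 6 lower (6 in each such fit). The tenascin TNC, found at sites of bone formation and repair, had 11.74, 11.56, 11.05 and 11.59 on Ti-TMS-PEI and 10.13, 9.72 and 10.02 on Ti-Ref. LAMA4 (1.30), a laminin chain, rose too. NTN4, a netrin of basement membranes, fell, with 11.41, 11.19, 11.36 and 11.65 on Ti-TMS-PEI, against 12.96, 13.01 and 12.72 on Ti-Ref. The microfibril protein MFAP5 (-1.24) and the fibulin FBLN5 (-0.76) were also lower. LOX, the enzyme that crosslinks collagen and elastin, fell by 1.08, and P4HA2, which hydroxylates collagen, rose by 1.55.

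Of 36 genes of the YAP and TEAD pathway 10 were lower and 4 higher, with a median of -0.11 (7 to 10 lower and 3 or 4 higher with 1 array left out). GADD45B, 1 of the 10, is also on a cell cycle list. The co-activators themselves were higher: YAP1 had 11.93, 11.82, 11.72 and 11.87 on Ti-TMS-PEI and 11.26, 11.20 and 11.17 on Ti-Ref (0.62, limma adjusted p = 0.00596), and WWTR1, which encodes TAZ, had 14.41, 14.18, 14.55 and 14.29 on Ti-TMS-PEI and 13.61, 13.72 and 13.74 on Ti-Ref (0.67, adjusted p = 0.0091). The call of YAP1 was lost when arrays were centred on their medians. VGLL4, a protein that competes with YAP for TEAD factors, was at 11, 10.67, 10.68 and 10.55 on Ti-TMS-PEI and at 8.70, 8.89 and 8.78 on Ti-Ref (1.94, adjusted p = 0.000266). Lower were CCN1, a matricellular target of the pathway, with 10.46, 10.51, 10.78 and 10.63 on Ti-TMS-PEI and 11.83, 12.11 and 11.48 on Ti-Ref, the target AJUBA (-1.50), CRIM1 (-1.19), the RhoGAP DLC1 (-1.72) and NF2 (-0.80), an upstream inhibitor of YAP. The targets CCN2 (-0.39) and ANKRD1 (-0.14) were not called.

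Junction proteins were called in both directions (4 of 66 higher, 6 lower), and the counts fell to 1 higher without Ti-TMS-PEI B and 2 lower without Ti-Ref A. The strongest call was JUP, the junction protein plakoglobin, with 12.05, 11.84, 11.78 and 11.65 on Ti-TMS-PEI and 9.83, 9.83 and 10.10 on Ti-Ref (1.91, limma adjusted p = 0.000266). In the group of annexins, S100 proteins, tetraspanins and keratins, 7 of 55 were higher and 5 lower (2 higher without Ti-TMS-PEI B or Ti-Ref B, 3 lower without Ti-TMS-PEI B or C or any 1 Ti-Ref array). KRT7 was at 10.91, 10.79, 10.83 and 10.67 on Ti-TMS-PEI and at 11.91, 11.90 and 11.92 on Ti-Ref, and KRT18, another keratin, rose by 0.66 (adjusted p = 0.00801). The keratin-associated KRTAP2-3 (-1.86) is a hair gene whose near copies KRTAP2-1 and KRTAP2-2 were also called lower, and these copies may share probe signal.

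Of 37 genes of prostaglandin and eicosanoid metabolism 7 rose and 2 fell. TBXAS1, the thromboxane synthase, rose by 0.77 and was lost without Ti-Ref A or C. PLA2G4A, the phospholipase that frees arachidonic acid, was at 12.25, 12.59, 12.34 and 12.44 on Ti-TMS-PEI and at 10.66, 10.04 and 10.72 on Ti-Ref (1.93, limma adjusted p = 0.000751). PTGS2 is described above, and the constitutive PTGS1 rose by 0.61 but was lost in 4 of the 7 leave-one-out fits (without Ti-TMS-PEI A or C or Ti-Ref A or B). The prostaglandin synthase PTGES had a log2 fold change of -0.08 and was not called. The receptors PTGFR, at 10.10, 9.95, 9.95 and 10.45 on Ti-TMS-PEI and at 11.03, 10.90 and 11.42 on Ti-Ref (-1.0, adjusted p = 0.00818), and PTGER4 (-0.86, adjusted p = 0.0102) were lower. AKR1C1, AKR1C2 and AKR1C3, aldo-keto reductases that act on steroids and prostaglandins, rose by 1.59, 1.5 and 1.95. They are close paralogs, and their probes may share signal.

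Of 55 genes of the list of interleukins and the IL6 family 6 rose and 2 fell (5 to 7 and 2 or 3 with 1 array left out). The list also holds CHI3L1, described above, which is 1 of the 6 increases but not an interleukin. IL1B, an inflammatory cytokine, was at 12.04, 12.27, 12.19 and 11.52 on Ti-TMS-PEI and at 10.71, 11.05 and 10.22 on Ti-Ref, its receptor IL1R1 rose by 1.29 and the receptor of interleukin 6 (IL6R) by 1.66, while IL15 fell by 0.86 on the log2 scale. IL6 (-0.20) and CXCL8 (-0.30) were not called. Of 47 chemokines and receptors, 1 rose and 4 fell (2 lower without Ti-TMS-PEI A or D or Ti-Ref A or B, 2 higher without Ti-Ref B). CCL26, an attractant of eosinophils, was at 11.22, 10.37, 9.37 and 9.93 on Ti-TMS-PEI and at 7.78, 7.26 and 7.56 on Ti-Ref. CCL2, an attractant of monocytes, was at 9.92, 10.30, 10.96 and 10.28 on Ti-TMS-PEI and at 11.83, 11.99 and 11.74 on Ti-Ref, and CXCL10 was at 4.81, 5.74, 5.19 and 5.74 on Ti-TMS-PEI and at 7.64, 6.97 and 7.03 on Ti-Ref. CXCL10 had the largest 4 h value of the 20 decreases, in the other direction (1.16, limma adjusted p = 0.062). TNFRSF11B, the decoy receptor osteoprotegerin that restrains osteoclasts, rose by 0.83 from an already high signal (16.15 on Ti-TMS-PEI, against 15.32 on Ti-Ref).

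Of 66 genes of the interferon response and antigen presentation 6 fell and 1 rose. The lower count was 2 without Ti-TMS-PEI C or without Ti-Ref A, and the higher count was 2 without Ti-TMS-PEI D or Ti-Ref B. MX1 had 10.25, 10.22, 9.15 and 9.66 on Ti-TMS-PEI and 12.55, 10.99 and 11.20 on Ti-Ref, with Ti-Ref A the highest. OAS3 (-0.96) and CMPK2 (-0.94), both in antiviral defence, were not called without Ti-Ref A, and IFI44L, OAS2 and XAF1 were each lost in 4 or more of the fits. ISG20, an exonuclease, was the 1 increase (1.03, limma adjusted p = 0.00439). The medians of the lists of 66 interferon genes (-0.06) and 47 chemokines (-0.02) lay near that of all transcript clusters.

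Of 56 measured lysosome and autophagy genes, 34 were higher and 1 lower at an unadjusted limma p under 0.05. Of all 21448 transcript clusters, 5219 passed this unadjusted threshold in either direction. Called were 13 higher and 1 lower (25% of the list), and the median log2 fold change was 0.35. With 1 array left out, 11 to 14 were higher. The mean log2 signal over the 56 genes was 10.76 to 10.84 in the Ti-TMS-PEI arrays and 10.34 to 10.41 in the Ti-Ref arrays. GABARAPL1, a protein of autophagosome membranes, was at 11.28, 11.65, 10.89 and 10.74 on Ti-TMS-PEI and at 9.43, 9.37 and 9.10 on Ti-Ref (1.84, limma adjusted p = 0.00203). The kinase ULK1, which starts autophagy, was at 9.67, 9.17, 9.34 and 9.18 on Ti-TMS-PEI and at 8.28, 8.37 and 8.21 on Ti-Ref. SQSTM1, the cargo receptor p62, was at 15.67, 15.74, 15.66 and 15.36 on Ti-TMS-PEI and at 14.54, 14.67 and 14.50 on Ti-Ref. The nearest arrays of the surfaces were apart in all 3 genes, by 1.31, 0.80 and 0.69 on the log2 scale. CTSD, the protease cathepsin D, had 14.82, 14.75, 14.79 and 14.61 on Ti-TMS-PEI and 13.73, 13.78 and 13.73 on Ti-Ref, GPNMB, a lysosomal and cell surface glycoprotein, rose by 1.31 and the cholesterol exporter of lysosomes NPC1 by 0.89. Of the proton pump, ATP6V1A was called (0.83, adjusted p = 0.00362), while ATP6V0D1 (0.32), ATP6V1H (0.38) and ATP6V1B2 (0.23) were not. The transcription factors TFEB (0.11), TFE3 (0.01) and MITF (-0.06), which control lysosomal genes, were not called. CTSC, cathepsin C, was the 1 lower (-0.87) and was lost without Ti-Ref B.

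Of 54 measured ribosome biogenesis genes, 8 were called lower and 0 higher (14.8%). The share was 6.15% for all transcript clusters and 10.8% for the brightest of the 4 signal groups. At an unadjusted p under 0.05, 30 were lower and 0 higher, against 5219 of all 21448 transcript clusters in either direction. The median was -0.29. The count of 8 depended on arrays and scaling, with 3 lower without Ti-Ref A, 10 at most with another array left out and 15 when arrays were centred on their medians. The mean over the 54 genes was 10.90 to 11.08 in the Ti-TMS-PEI arrays and 11.34 to 11.37 in the Ti-Ref arrays. POLR1E, a subunit of RNA polymerase I, had 10.12, 10.22, 10.51 and 10.19 on Ti-TMS-PEI and 11.24, 11.21 and 11.33 on Ti-Ref (-1.0, limma adjusted p = 0.00215), PNO1, which matures the small subunit, fell by 0.76 and the nucleolar LYAR by 0.88. Nucleolin (NCL, -0.20) and nucleophosmin (NPM1, -0.10) were not called. In families chosen by symbol after the values had been seen, 5 of 30 RNA polymerase subunits (POLR), 4 of 20 nucleoporins (NUP) and 2 of 12 core proteins of splicing particles (SNRP) were lower and 0 higher. These counts fell to 2 without Ti-Ref A, to 2 without Ti-TMS-PEI B, Ti-Ref A or Ti-Ref C and to 0 without Ti-TMS-PEI A. The families overlap with other sets: POLR1E and POLR3G are also among the 8 ribosome biogenesis genes, and the nucleoporin NUP107 is on a cell cycle list. Of 53 cytosolic ribosomal proteins only RPL39L was called (-1.12), and their median was -0.05. Of 74 mitochondrial ribosomal proteins 1 was called, MRPS9 (-0.65). At an unadjusted p under 0.05, 24 of the 74 were lower and 1 higher, to be read beside the same 5219 of 21448 transcript clusters.

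**Figure D4:**
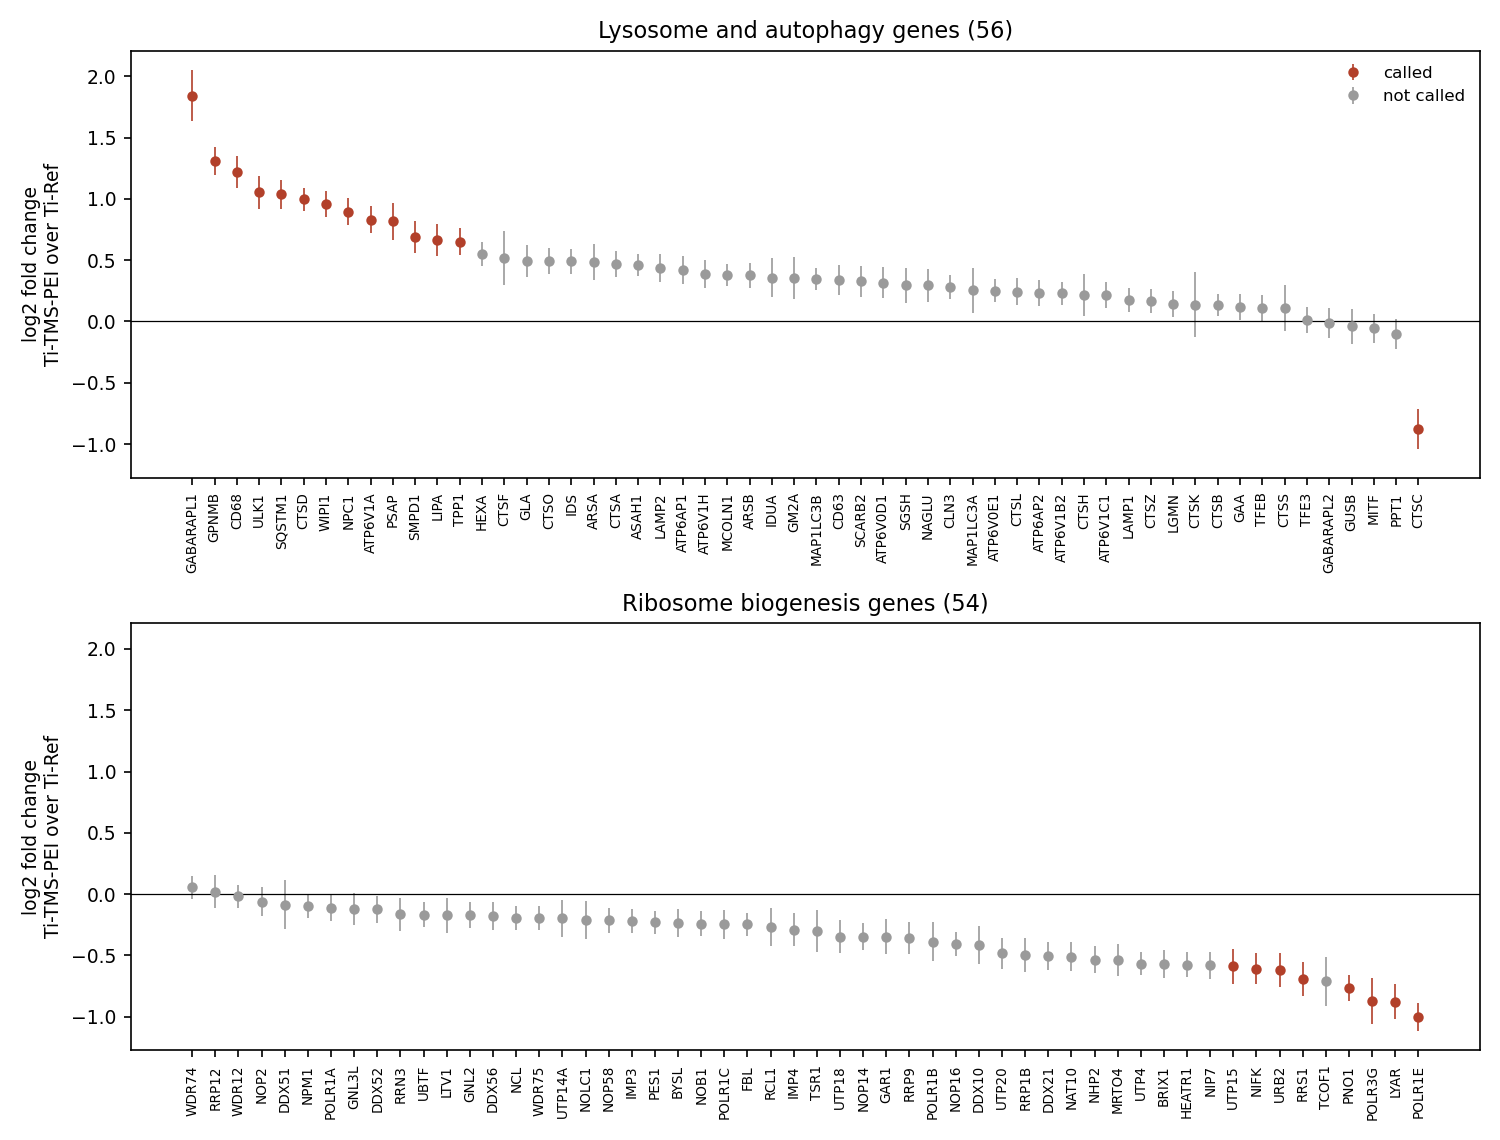
Log2 fold change of Ti-TMS-PEI over Ti-Ref (vertical axis, bars are the standard error from limma) of every measured gene of 2 lists, lysosome and autophagy (upper panel, 56 genes) and ribosome biogenesis (lower panel, 54 genes), with called genes in red and others in grey. Most lysosome and autophagy genes lie above 0 and most ribosome biogenesis genes below it.

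In the glycolysis and hypoxia list 9 of 50 rose and 1 fell (7 to 10 higher with 1 array left out), with a median of 0.22. The called genes were the enzymes HK1, P4HA2, CA12 and LOX (the 1 lower), the regulators EPAS1, BHLHE40 and MXI1 (lost without Ti-Ref A or B), the secreted ANGPTL4 and VEGFA, and NDRG1. NDRG1, induced by hypoxia, had 16.80, 16.58, 15.72 and 16.27 on Ti-TMS-PEI and 14.26, 14 and 15.03 on Ti-Ref, the clock and hypoxia repressor BHLHE40 had 11.86, 11.79, 10.95 and 11.07 on Ti-TMS-PEI and 8.95, 9.12 and 9.98 on Ti-Ref, and EPAS1, the hypoxia factor HIF2-alpha, rose by 0.73. In NDRG1 and BHLHE40, as in CA12, Ti-Ref C was the highest Ti-Ref array and Ti-TMS-PEI C the lowest coated array. Of the glycolytic enzymes, HK1 was called (0.65, limma adjusted p = 0.00362), while GAPDH (0.08), ENO1 (0.05), PGK1 (0.06) and LDHA (0.29) were not, and HIF1A had a log2 fold change of -0.01. VEGFA (0.94) was called but was lost in 5 of the 7 leave-one-out fits (without Ti-TMS-PEI A, B or D or Ti-Ref A or B).

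Of 58 genes of ATF4 and the unfolded protein response 7 fell and 1 rose (3 lower without Ti-Ref A, 0 higher without Ti-TMS-PEI A). The strongest calls make serine, asparagine and folate intermediates: PSAT1 had 13.35, 13.28, 13.58 and 13.37 on Ti-TMS-PEI and 14.38, 14.50 and 14.29 on Ti-Ref, ASNS fell by 1.04 and MTHFD2 by 0.67 on the log2 scale. ATF4 (-0.09), DDIT3 (0.10) and the chaperone HSPA5 (-0.20) were not called. Of 66 heat shock, metallothionein and antioxidant genes 10 rose and 1 fell (6 higher without Ti-TMS-PEI B, Ti-Ref A or Ti-Ref C, 0 lower in every fit without 1 array except that without Ti-TMS-PEI D). HSPB8, a small heat shock protein that takes part in selective autophagy, was at 12.47, 12.77, 12.65 and 12.50 on Ti-TMS-PEI and at 11.10, 10.91 and 11.01 on Ti-Ref (1.59, adjusted p = 0.000288), and HSPA2 rose by 1.23. The major chaperones HSP90AA1 (0.01) and HSPD1 (-0.14), the antioxidant HMOX1 (0.07) and the metallothionein MT2A (0.01) were not called.

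Of 63 genes of cAMP signaling and of RGS proteins, which shorten G protein signals, 9 rose and 1 fell. With 1 array left out, 6 to 10 were higher, and 2 were lower without Ti-TMS-PEI D. Besides AKAP12 and GEM, the adenosine receptor ADORA1, which lowers cAMP, had 9.03, 9.01, 9.07 and 8.66 on Ti-TMS-PEI and 7.85, 7.63 and 7.69 on Ti-Ref, and RGS17, which shortens G protein signals, rose by 1.40. The phosphodiesterase PDE1C fell by 0.86 on the log2 scale. The catalytic subunits of protein kinase A PRKACA and PRKACB were not called, with log2 fold changes of -0.19 and 0.31.

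Of 58 genes of the TGF-beta, BMP and activin pathway 8 rose and 2 fell (4 higher without Ti-Ref B). ID3, a target of BMP signals that blocks differentiation factors, had 14.79, 15.04, 14.70 and 14.57 on Ti-TMS-PEI and 13.52, 13.51 and 13.48 on Ti-Ref, and ID2 rose by 1.40. The ligands BMP7, at 9.43, 9.32, 8.79 and 9.60 on Ti-TMS-PEI and 7.59, 7.12 and 7.45 on Ti-Ref (1.90, limma adjusted p = 0.00147), and TGFB1 (0.80) rose, while the ubiquitin ligase SMURF2 (-0.78), which marks receptors for decay, and the activin antagonist FST (-0.77) fell. Of 44 genes of osteoblast differentiation and mineralization 8 rose and 2 fell (5 higher without Ti-TMS-PEI B or Ti-Ref A, 1 lower without Ti-Ref B). TNC and TNFRSF11B, given above with other lists, are among the 8. ANKH, which takes part in the export of pyrophosphate, an inhibitor of mineralization, had 13.93, 14.04, 14 and 13.75 on Ti-TMS-PEI and 12.83, 13.04 and 12.99 on Ti-Ref, SOX4 rose by 1.02 and BMPER fell by 0.87 on the log2 scale. RUNX2, ALPL and SP7 were not called. Outside the WNT ligands tabulated in the study, RSPO2, which amplifies WNT signals, was at 7.02, 7.16, 6.36 and 7.03 on Ti-TMS-PEI and at 5.26, 4.79 and 4.70 on Ti-Ref (1.98, adjusted p = 0.0017). AXIN2, a target of canonical WNT signals, was lower by 0.74 but lost in 6 of the 7 leave-one-out fits (all except that without Ti-TMS-PEI D). Of the growth factor receptors, PDGFRB rose by 1.5 (12.90, 12.60, 12.24 and 12.28 on Ti-TMS-PEI and 11.02, 10.89 and 11.09 on Ti-Ref), and the neurotrophin BDNF fell by 1.04 on the log2 scale.

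Most of the 1003 genes were in none of the 36 lists. The families and genes named next were chosen after their values had been seen. Of 375 transcript clusters of solute carriers 21 were higher and 5 lower, and 18 to 22 were higher with 1 array left out, while the 5 decreases fell to 1 without Ti-Ref A. SLC51B, a subunit of a bile acid and steroid exporter, was at 8.11, 7.73, 6.81 and 7.89 on Ti-TMS-PEI and at 5.61, 5.41 and 5.74 on Ti-Ref. SLC6A6, the taurine transporter, was at 12.24, 11.85, 11.12 and 11.47 on Ti-TMS-PEI and at 9.85, 9.51 and 10.09 on Ti-Ref, and SLC17A5, the exporter of sialic acid from lysosomes, rose by 1.73. The decreases included the mitochondrial carriers SLC25A10 (-1.11) and SLC25A13 (-0.73, lost without Ti-Ref A). With 26 called of 375, the family lies near the 6.15% of all transcript clusters.

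Of 37 p53 target genes 3 rose and 2 fell, with EDA2R and the kinase PLK2 lower. TP53INP1, which takes part in cell death and autophagy, and the cyclin CCNG2 were higher. The remaining increase is a gene set aside here, from the cell cycle lists or the tables of the study. PLK2 was at 12.06, 11.99, 12.15 and 12.43 on Ti-TMS-PEI and at 13.55, 13.96 and 13.60 on Ti-Ref. TP53INP1 was at 7.25, 7.09, 6.33 and 6.45 on Ti-TMS-PEI and at 5.17, 5.14 and 4.91 on Ti-Ref. Of 77 genes of Notch, ephrins, semaphorins and axon guidance 5 rose and 5 fell, 1 of them a tabulated gene (3 higher without Ti-TMS-PEI A or B or Ti-Ref B). The ephrin EFNB2 was at 6.69, 6.8, 6.91 and 6.7 on Ti-TMS-PEI and at 8.29, 8.48 and 7.72 on Ti-Ref, and the ephrin receptor EPHA5 fell by 1.08 on the log2 scale, while the ephrin EFNA5 rose by 0.85. Of 75 growth factor genes 9 rose and 7 fell (6 higher without Ti-TMS-PEI B or Ti-Ref A or B, 3 lower without Ti-TMS-PEI A or Ti-Ref A), and 4 of these calls are tabulated genes. ANGPTL4, which inhibits lipoprotein lipase, was at 9.48, 8.77, 8.13 and 8.85 on Ti-TMS-PEI and at 7.09, 6.46 and 6.95 on Ti-Ref. Of 66 WNT pathway genes 5 rose and 4 fell, and 5 of these 9 are tabulated genes. None of the 66 (0) was called lower without Ti-Ref A or B. Of 109 ion channel genes 8 rose and 6 fell (3 higher without Ti-TMS-PEI A), and 1 of these calls is a tabulated gene. Of 33 genes of cholesterol and fatty acid synthesis 3 rose and 0 fell, with 2 higher in each fit without 1 array and 1 higher after centring. SCD, a fatty acid desaturase, was lost without Ti-TMS-PEI C and on centring, TM7SF2 without Ti-TMS-PEI B or Ti-Ref B and on centring, and ABCA1 without Ti-TMS-PEI A or D or any 1 Ti-Ref array.

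YPEL3, a small nuclear protein that slows growth, had 11.77, 11.35, 10.81 and 10.80 on Ti-TMS-PEI and 8.79, 9.42 and 9.07 on Ti-Ref (2.09). SAT1, which breaks down polyamines, had 10.89, 10.71, 10.32 and 10.60 on Ti-TMS-PEI and 8.93, 8.65 and 8.79 on Ti-Ref (1.84). DEPTOR, an inhibitor of the kinase mTOR, was at 9.29, 8.83, 8.72 and 9.50 on Ti-TMS-PEI and at 7.54, 7.22 and 7.41 on Ti-Ref (1.7). The ubiquitin ligase FBXO32 (1.48), the pyruvate dehydrogenase kinase PDK4 (1.55) and KLHL24 (1.7) rose as well, all in each leave-one-out fit. Lower genes outside the lists included CAVIN2, a coat protein of caveolae, at 9.35, 8.96, 9.22 and 9.48 on Ti-TMS-PEI and at 10.91, 10.66 and 10.80 on Ti-Ref (-1.54), the adhesion protein NEGR1 (-1.58) and HPRT1, the enzyme of purine salvage (-1.03). HPRT1 is often used as a reference gene.

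The order of genes in RefSeq was used to look for neighbours, with the genes of the tables of the study included. Of 1016 called genes that could be placed, 152 (15%) had a measured neighbour called in the same direction, and 9 runs of 3 or more were found. Of 670 genes called higher, 15.1% had a neighbour called higher, against 7.33% of all 17687 placed genes, and of 346 genes called lower, 14.7% had a neighbour called lower, against 3.79% of all. These shares include runs of paralogs, whose probes may share signal. A pair of these runs held the 9 PSG genes, and others held the 3 AKR1C genes and the 3 KRTAP2 genes, whose members are paralogs. CHI3L1 formed a run of increases with ADORA1 and MYBPH, which are not alike in sequence. MYBPH, a myosin-binding protein, was at 7.78, 6.91, 6.79 and 6.82 on Ti-TMS-PEI and at 4.58, 5.70 and 5.17 on Ti-Ref. A run of increases held ZNF223, ZNF284 and ZNF224, zinc finger genes of 1 family, whose probes may share signal. The other runs were YAP1 with CEP126 and CFAP300 (higher), SLC8B1 with TPCN1 and PLBD2 (higher) and NECTIN1 with THY1 and USP2 (lower). In another family of neighbours, the clustered protocadherins of the beta group, 5 of 16 were higher and 0 lower, with a median of 0.55, but only 1 remained without Ti-Ref B. The probes of these protocadherins may share signal too.

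The 9 transcript clusters that were called after 4 h are all among the tabulated genes set aside here, so 0 calls at 4 h among the 1003 genes is fixed by that choice. At 4 h, 181 of the 1003 had an unadjusted limma p under 0.05, 125 in the same direction as at 24 h and 56 in the opposite one. Of the 1003, 566 had the same sign at both times. The difference between the coating effect of 24 h and that of 4 h, fitted over all 15 arrays, was called for 4.78% of all transcript clusters and for 582 (58.0%) of the 1003 genes. This share follows in part from the choice of genes called at 24 h, and nothing is read from it. All 40 largest changes passed. Their 4 h effects were at most 1.24 on the log2 scale for the increases (LURAP1L) and 1.16 for the decreases (CXCL10), and 17 of the 20 increases but 8 of the 20 decreases had the same sign at 4 h. The 4 h values of AKAP12 (0.25), CHI3L1 (0.23), RASL12 (0.11) and SHISA4 (0.01) lay near 0, while MMP1 (1.07, limma adjusted p = 0.0747), LURAP1L (1.24, adjusted p = 0.062) and GEM (0.96) were already above it without passing.

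**Figure D5:**
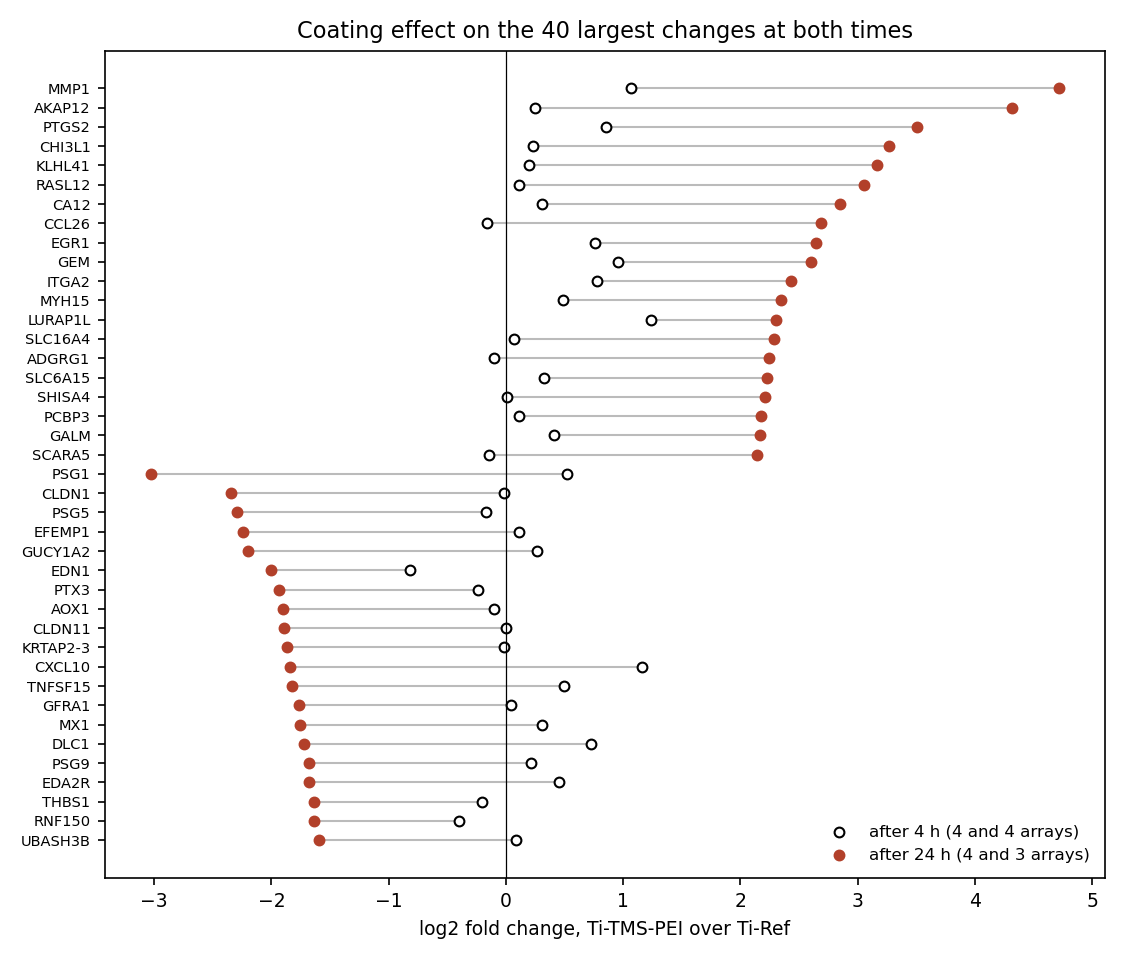
Log2 fold change of Ti-TMS-PEI over Ti-Ref (horizontal axis) of the 40 largest changes after 24 h (filled red) and after 4 h (open). The 4 h points lie between -0.82 and 1.24, and a grey line joins the values of each gene.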

How the data were processed

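RNA of MG-63 cells was hybridised to Clariom S arrays. The authors scanned the arrays and used the Transcriptome Analysis Console (its version is not given in the sources used here) for SST-RMA, which corrects the background, rescales and quantile-normalizes the signals and summarizes the probes, and deposited log2 values for each transcript cluster. Array medians differ between 4 h and 24 h, so levels were compared only within 24 h. Values were used as deposited. Gene symbols come from the platform annotation (3739 transcript clusters have none). In R 4.3.3, limma 3.58.1 (lmFit, eBayes) was fitted to the 7 arrays modelling only the coating, and p values were adjusted by Benjamini-Hochberg over 21448 transcript clusters. Calls needed a fold change over 1.5 and p and adjusted p under 0.05. The difference between the times was an interaction over 15 arrays. Same-letter arrays of the surfaces did not resemble each other (correlation of residuals -0.06 to -0.07), and no pairing was used. The labels do not say whether a letter stands for 1 experiment.

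The members and lists were chosen with earlier results of these data known. Named were the 20 largest non-overlapping changes in each direction and up to 4 members of each list by adjusted p, with further members named after their values were seen. On simulated data for the 24 h comparison of 21448 genes, the calls recovered 44.8%, 70.1% and 92.4% of genes changed 1.7-, 2- and 3-fold, with 4 false calls. The simulated errors were independent between genes, and fewer genes were changed than were called in the real data. These rates may therefore not hold for the real arrays, which differed in a way that ran through many genes. The fit was repeated leaving out each array, with the letters as a replicate block, with the spread of all arrays, robust or weighted, without dim signals, after centring or a second quantile normalization, with 1 transcript cluster per gene and at other thresholds. Figures were drawn with matplotlib 3.10.9.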

Additional observations from a re-analysis of the deposited data

Results flagged for a closer look

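The coating effect differed between 24 h and 4 h, tested as an interaction in limma, for all of the 10 largest increases and 10 largest decreases. The difference of the log2 fold changes (24 h minus 4 h) was 3.65 for MMP1, 4.07 for AKAP12, 2.65 for PTGS2, 3.04 for CHI3L1, 2.97 for KLHL41, 2.94 for RASL12, 2.54 for CA12, 2.85 for CCL26, 1.89 for EGR1 and 1.64 for GEM. It was -3.55 for PSG1, -2.33 for CLDN1, -2.12 for PSG5, -2.36 for EFEMP1, -2.47 for GUCY1A2, -1.19 for EDN1, -1.70 for PTX3, -1.80 for AOX1, -1.89 for CLDN11 and -1.85 for KRTAP2-3. These genes were chosen at 24 h, which enlarges such differences.

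Within the 4 Ti-TMS-PEI arrays, 1 array lay far from the other 3 for 6 of 152 named genes. Chance flags about 1 in 20 groups in this way. The gap divided by the range was 0.848 for SYNPO (D at 11.70, others 11.98 to 12.03), 0.838 for CXCL1 (C at 5.66, others 4.98 to 5.09), 0.854 for SEMA6D (C at 11.75, others 12.16 to 12.23), 0.854 for ADORA1 (D at 8.66, others 9.01 to 9.07), 0.955 for MTHFD2 (D at 13.97, others 13.75 to 13.76) and 0.882 for KRT80 (C at 7.03, others 6.52 to 6.58). In each case the array that stood apart, C or D, was the one nearest to Ti-Ref. The groups of 3 Ti-Ref arrays were not tested.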

How the results depend on the processing

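The count of called transcript clusters was 1319. The labels do not say whether the letters pair the arrays. Outside the cell cycle, a fit with the letters as a replicate block called 637 (414 higher and 223 lower), of which 591 were among the 1003. Ti-Ref has no array D at 24 h, so Ti-TMS-PEI D adds nothing to the coating effect in this fit. The block also leaves fewer degrees of freedom to estimate the spread, so the lower count need not reflect pairing. In all, the count with this block was 853 (464 higher). It was 2020 with no fold threshold (914 lower; 1601 outside the cell cycle, 617 of them lower), 398 at a fold over 2 (259 higher and 139 lower; 327 outside the cell cycle, 233 and 94) and 581 at an adjusted p under 0.01 (369 higher and 212 lower; 482 outside the cell cycle, 337 and 145). The other settings that kept all arrays stayed within 1.5 times of each count. Some fits with 1 array left out went beyond this. They were those without Ti-Ref A (851 in all, 305 lower and 205 lower outside the cell cycle) and without Ti-TMS-PEI B (367 lower). With 1 array left out, the counts were 851 to 1370 in all, 503 to 759 higher, 305 to 639 lower, 694 to 1047 outside the cell cycle (454 to 674 higher, 205 to 374 lower) and 428 to 592 for the difference between the times. The lowest counts came without Ti-Ref A (851, 305, 694 and 205) or Ti-Ref B (503, 454 and 428). No named gene changed its direction in any setting, and 122 of the 152 named genes kept their call with each array left out. Arrays give no counts, and dim signals are compressed, so that small changes of dim genes could not be called.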
